A study of Mus musculus with 32 samples.

Results

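The integrated stress response is followed here in the interscapular brown adipose tissue (iBAT) of the mouse through the messenger RNAs of 10 genes: Atf4, Atf5, Ddit3, Trib3, Asns, Chac1, Sesn2, Phgdh, Psat1 and Mthfd2. They were chosen by symbol, as the rows of a raw count table whose Ensembl identifier maps to one of these names, and no measured value enters this rule. All 10 were found among the 50686 genes of the table, and all 10 passed the filter on low counts that left 15505 genes for testing. The mice were non-fasted male C57BL/6J animals of 10 weeks, without any genetic or drug treatment, fed chow and kept below thermoneutrality under a light:dark cycle. Time is Zeitgeber time (ZT), in hours from lights on, so that the light (inactive) phase runs from ZT0 to ZT12 and the dark (active) phase follows. There were 8 groups, one every 3 h from ZT0 to ZT21, with 4 mice in each and 1 library per mouse. iBAT is a whole fat pad, so each value is a mixture over the cells in it.

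When uncharged tRNA, unfolded protein, haem shortage or a mitochondrial defect activates one of the kinases that phosphorylate the initiation factor eIF2, most translation slows while translation of the Atf4 message increases. ATF4, a bZIP transcription factor, then raises genes for amino acid import, asparagine and serine synthesis, tRNA charging and mitochondrial one-carbon metabolism, often together with C/EBP partners at a composite sequence element. In brown fat the response is known from mitochondrial stress, in which the tissue can release the hormone FGF21. Because ATF4 is controlled mainly at translation, the level of the Atf4 message does not measure the activity of the protein, and only messages were measured here.

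Of 4 motifs searched in their promoters, only the ATF4-type element was found, in 3 of the 10 genes. RefSeq promoters (GRCm38.p6, from upstream of each start site to just inside it, 12 for the 10 genes) were searched on both strands for 4 motifs: the C/EBP-ATF composite element TGATGNAA, the CRE TGACGTCA, the E-box CACGTG and a D-box-like word TTANNTAA. The composite element was present in Asns, Chac1 and Trib3, and none of the 4 motifs was found in the windows of the other 7 genes. Over all 32851 promoters of the same length the composite element occurs in 3.97%, the CRE in 1.79%, the E-box in 7.15% and the D-box-like word in 6.00%. The stretches around the 3 matches are shown because they hold the letters that ATF4 with C/EBP proteins are known to bind, and they are written 5′ to 3′ on the strand of the gene with the element in capitals.
Asns, chr6:7693215-7693242, minus strand: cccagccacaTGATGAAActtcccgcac
Chac1, chr2:119351009-119351096, plus strand: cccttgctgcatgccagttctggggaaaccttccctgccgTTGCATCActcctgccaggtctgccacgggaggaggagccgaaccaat
Trib3, chr2:152344029-152344056, minus strand: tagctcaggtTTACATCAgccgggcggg
In Asns the word reads TGATGAAA along the gene, at positions -23 to -16 from the start site. In Chac1 the element lies on the opposite strand, as TGATGCAA, at -193 to -186. In Trib3 it also lies on the opposite strand, as TGATGTAA, but after the start site, at +15 to +22. Of these 3 genes Asns and Trib3 passed the tests of a daily cosine described further on, with peaks at ZT16.5 and ZT4.59, and Chac1 did not. Of the genes without a match Atf4, Atf5, Phgdh, Psat1 and Mthfd2 passed too, and Ddit3 and Sesn2 did not. Over all tested genes 36.1% passed the edgeR cosine test. A match of letters is a description and not a binding site.

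Total counts per library ran from 16300770 to 18254659, and levels are in CPM, a gene's count divided by the TMM-scaled library total and given per 1000000 counts. SDs are over the 4 mice of a time point. The time labels were checked with clock genes: Arntl peaked at ZT23.2 and Dbp at ZT10.1. The 8 markers of brown adipocytes (Ucp1, Cidea and others) summed to between 8671 and 14230 CPM, and none was at 0 over the series. Markers of other tissues were also counted. The sum of 10 skeletal muscle markers ranged from 2.45 CPM in replicate 4 of ZT6 to 7241 CPM in replicate 1 of ZT15. That of 5 white fat markers ranged from 50.0 CPM in replicate 1 of ZT6 to 419 CPM, again in replicate 1 of ZT15. Of these 5, Lep, Nnat and Trim66 passed the cosine test described further on. Whether their RNA came from white fat or from brown fat was not tested. Each time point was sequenced on 1 lane, ZT0, ZT3 and ZT6 on lane 2, ZT9, ZT12 and ZT15 on lane 3, and ZT18 and ZT21 on lane 4. Time of day and lane can therefore be told apart only inside a lane.

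Most of the 10 genes differed between the time points, with fitted peaks in different phases, in tests over the whole day that are not free of lane. By JTK, a rank test against cosine curves of 21 and 24 h, 7 of the 10 oscillated at the threshold of the study, P under 0.05 (Atf4, Atf5, Trib3, Asns, Phgdh, Psat1 and Mthfd2), beside 36.4% of all tested genes. With the Benjamini-Hochberg (BH) adjustment over all genes 4 remained past 0.05 (Atf4, Atf5, Trib3 and Mthfd2), beside 27.1% of all genes. A 24 h cosine, tested in edgeR by quasi-likelihood and BH-adjusted, found the same 7 genes as unadjusted JTK, beside 36.1% of all genes. The test of any difference between the 8 time points passed for all members but Ddit3, 9 in all, beside 39.8% of all genes. No member passed the test of a 12 h component beside the 24 h one (edgeR, BH-adjusted p from 0.144 for Chac1 to 0.738 for Atf4), beside 0.464% of all genes that did. At an unadjusted p under 0.05 in the same edgeR fit, 5 of the 10 passed (Ddit3, Trib3, Asns, Chac1 and Sesn2), beside 2732 of 15505 genes (17.6%). The median cosine amplitude of the 10 genes was 0.35 on the log2 scale, against 0.14 over all tested genes, with Atf5, Phgdh and Trib3 above the 96th percentile and Ddit3 below the 38th.

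**Figure D1:**
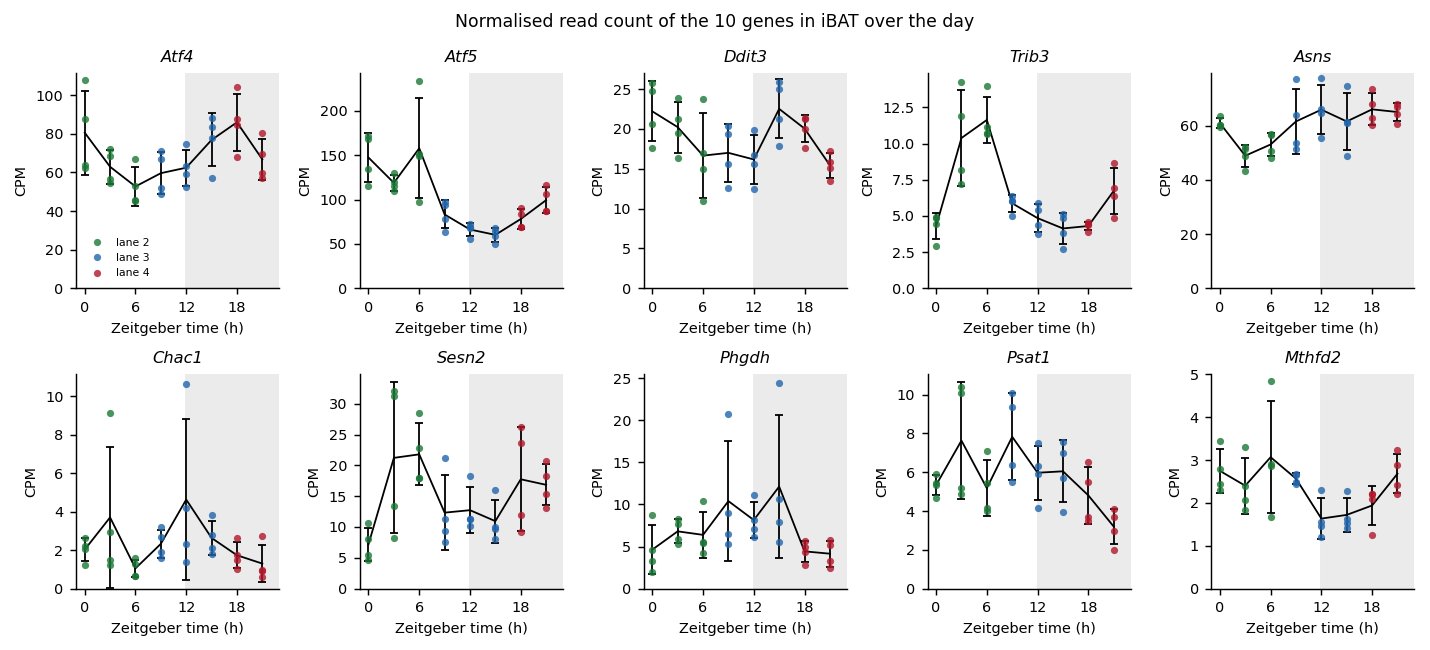
Normalised read count (CPM) of each of the 10 genes against Zeitgeber time (h). Points are single mice, coloured by sequencing lane, the line and bars are the mean ± SD (n = 4), and grey marks the dark phase. The means of Atf5, Trib3 and Mthfd2 are highest at ZT6, that of Atf4 is highest at ZT18, and single mice stand out in Chac1 and Phgdh.

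The lane sets a limit on these counts. With lane as an additive factor beside the cosine, only Atf4 (BH-adjusted p = 0.0202, edgeR) and Trib3 (adjusted p = 0.00299) of the 10 genes passed, beside 17.2% of all genes, and Atf5 did not (adjusted p = 0.189). As each lane holds neighbouring time points, the lane terms also take up part of any daily curve. A call lost in this fit, here or for the pathway genes below, therefore cannot be assigned to lane or to time. Inside lane 2, the first 6 h of the light phase, Trib3, Sesn2 and Asns differed between ZT0, ZT3 and ZT6, beside 13.3% of all genes. Inside lane 3 and inside lane 4 none of the 10 genes passed, beside 1.93% and 4.48% of all genes. At an unadjusted p under 0.05, 3 members passed in lane 3 (Atf5, Ddit3 and Mthfd2) and 4 in lane 4 (Atf4, Atf5, Ddit3 and Trib3), beside 2365 of 14826 and 2992 of 14486 tested genes.

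Atf4, the transcription factor at the centre of the response, was the next most abundant per length after Atf5 (chr15:80255184-80257541 on the plus strand in GRCm38, 1 exon block). Its 4 mice had 45.2, 53.2, 45.6 and 66.8 CPM at ZT6, 84.3, 104, 87.5 and 67.9 CPM at ZT18 and 62.5, 87.8, 108 and 64.0 CPM at ZT0. ZT18 was the highest group and ZT6 the lowest, without overlap between their mice, although the lowest mouse of ZT18 (67.9 CPM) was only just above the highest of ZT6 (66.8 CPM). Means were 86.0 ± 14.9 and 52.7 ± 10.1 CPM (SD, n = 4 each), a ratio of 1.63. The fitted amplitude was 0.26 ± 0.07 (SE) on the log2 scale with the peak at ZT19.0 (SE 0.983 h) in the dark phase (exact JTK P = 0.00148, edgeR cosine BH-adjusted p = 0.00692). Without replicate 2 of ZT18, the mouse with 104 CPM, the test of the 8 time points gave a BH-adjusted p of 0.0532 (edgeR), and without replicate 4 of ZT0 Atf4 passed within lane 2 (0.0445).

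Atf5, the close relative of ATF4 that is tied to the mitochondrial stress response, had the highest level per length of the 10 genes and the largest amplitude (chr7:44812256-44816658 on the minus strand). Its mice had 115, 135, 168 and 171 CPM at ZT0, 233, 149.6, 152 and 96.8 CPM at ZT6, 72.9, 67.6, 69.1 and 55.2 CPM at ZT12 and 49.9, 64.1, 59.0 and 67.8 CPM at ZT15. Every mouse of ZT0, ZT3 and ZT6 lay above every mouse of ZT12 and ZT15, but the mice of ZT6 spread widely, from 96.8 to 233 CPM. The mean fell 2.62-fold from 158 ± 56.3 CPM at ZT6 to 60.2 ± 7.75 CPM at ZT15 (SD, n = 4 each). The amplitude was 0.63 ± 0.08 (SE, log2) with the peak at ZT2.39 (SE 0.458 h), early in the light phase (exact JTK P = 3.99e-07, edgeR cosine BH-adjusted p = 4.87e-07). The 3 high groups were all on lane 2 and the low ones on lane 3, and inside either lane no difference of Atf5 passed (BH-adjusted p = 0.328 and 0.201, edgeR). Of its merged exons 4.11% of bases also belong to Nup62 and Il4i1 on the opposite strand.

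Ddit3, which encodes CHOP, the pro-apoptotic arm of the response, did not pass any of the tests over the whole day (chr10:127290774-127296288 on the plus strand). Its highest group was ZT15 with 25.1, 25.9, 17.8 and 21.3 CPM and its lowest ZT21 with 13.5, 15.9, 15.1 and 17.2 CPM. These groups did not overlap, yet the means were only 1.46-fold apart (22.5 ± 3.71 against 15.4 ± 1.57 CPM, SD, n = 4 each). The cosine amplitude was 0.11 ± 0.08 (SE, log2; edgeR BH-adjusted p = 0.523, exact JTK P = 0.629), and the 8 time points gave a BH-adjusted p of 0.0638. The last value is close to the threshold: DESeq2 gave an adjusted p of 0.0249, and edgeR gave 0.0134 to 0.0499 without replicate 1 of ZT0, replicate 1 or 4 of ZT6, replicate 4 of ZT12 or replicate 3 of ZT15. Exons of Ddit3 share 3.97% of their bases with Mars and 0.759% with Gm4189 on the opposite strand, and 6.13% with a second Ddit3 identifier.

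Trib3, the pseudokinase that ATF4 induces and that in turn binds ATF4, rose early in the light phase (chr2:152337422-152344032 on the minus strand). Its mice had 2.95, 4.44, 4.83 and 4.89 CPM at ZT0, 14.3, 7.19, 8.18 and 11.9 CPM at ZT3 and 11.2, 10.8, 14.0 and 10.6 CPM at ZT6. All 8 mice of ZT3 and ZT6 were above all 4 of ZT0, which were sequenced on the same lane. By ZT9 the mice had come down to 6.06, 6.37, 6.04 and 5.02 CPM, and at ZT15 they had 2.73, 5.14, 4.84 and 3.81 CPM. The mean fell to 4.13 ± 1.09 CPM at ZT15 from 11.6 ± 1.57 CPM at ZT6 (SD, n = 4 each), a ratio of 2.82. Inside lane 2 the difference passed with a BH-adjusted p of 0.00493 (edgeR), and in each of the 12 fits that left out 1 mouse of the lane. The amplitude was 0.59 ± 0.11 (SE, log2), with the peak at ZT4.59 (SE 0.732 h) (exact JTK P = 3.19e-06, edgeR cosine BH-adjusted p = 1.01e-04). At ZT6, where the mean of Trib3 was highest, that of Atf4 was lowest.

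**Figure D2:**
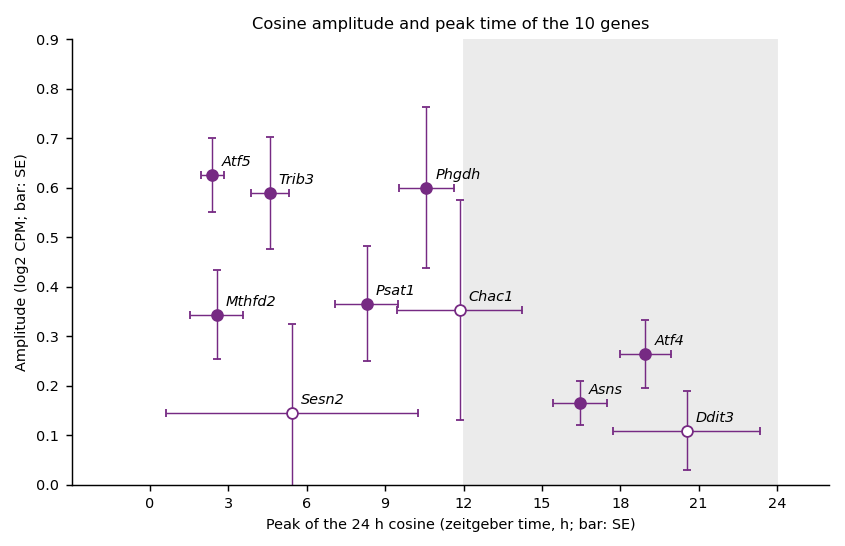
Amplitude of the 24 h cosine (log2 CPM) against its peak (Zeitgeber time, h) for the 10 genes, with SE bars in both directions. Filled points passed the edgeR cosine test after BH adjustment, open points did not, and grey marks the dark phase. Of the 7 filled genes, 5 peak in the light phase and Asns and Atf4 in the dark phase, beside 2854 and 2748 of all genes that passed.

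Asns, asparagine synthetase and a direct ATF4 target, was low in the first part of the light phase and otherwise nearly flat (chr6:7675169-7693254 on the minus strand). Its mice had 52.1, 43.3, 51.6 and 48.9 CPM at ZT3 and 50.8, 48.1, 57.0 and 56.5 CPM at ZT6, against 63.8, 59.6, 60.3 and 60.3 CPM at ZT0 and 60.2, 67.9, 62.8 and 73.5 CPM at ZT18. No mouse of ZT3 or ZT6 reached the lowest mouse of ZT0. The lowest mean was 49.0 ± 4.04 CPM and the highest 66.1 ± 5.90 CPM (SD, n = 4 each), a ratio of 1.35. Its amplitude was 0.17 ± 0.04 (SE, log2), with the peak at ZT16.5 (SE 1.03 h) (exact JTK P = 0.0238, edgeR cosine BH-adjusted p = 0.0124). Inside lane 2 the difference gave a BH-adjusted p of 0.0439 (edgeR), and it passed in 4 of the 12 fits that left out 1 mouse of the lane. The mice lost in the 8 other fits were replicates 1, 2 and 3 of ZT0, replicates 2, 3 and 4 of ZT3 and replicates 1 and 3 of ZT6, with BH-adjusted p from 0.0577 to 0.109. In the test of the 8 time points Asns gave 0.0770 without replicate 2 and 0.0556 without replicate 4 of ZT3. Asns and Trib3 thus moved in opposite directions within lane 2.

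Chac1, the glutathione-degrading enzyme induced by ATF4 and CHOP, was low and carried by single mice (chr2:119351229-119354381 on the plus strand). At ZT12 its mice had 1.38, 10.6, 2.31 and 4.17 CPM, at ZT3 2.94, 9.10, 1.51 and 1.23 CPM and at ZT6 1.25, 1.60, 0.673 and 0.668 CPM. Replicate 2 of ZT12 and replicate 2 of ZT3 were far above every other mouse of the series, and the highest group overlapped with the lowest. Means were 4.62 ± 4.17 and 1.05 ± 0.458 CPM (SD, n = 4 each), and counts per library ran from 10 to 183. The 8 time points passed with a BH-adjusted p of 0.0379 (edgeR), while neither the exact JTK test (P = 0.685) nor the cosine (BH-adjusted p = 0.365) did. Both high mice had high skeletal muscle markers, 6984 and 7164 CPM, but replicate 1 of ZT15, with 7241 CPM, had only 1.79 CPM of Chac1. Without these 3 libraries the test of the time points gave a BH-adjusted p of 0.110, and the part of muscle in the result was not tested. It also missed the threshold in 9 of 32 fits without 1 mouse, up to 0.0915 without replicate 2 of ZT12. The 8 other mice were replicates 1, 3 and 4 of ZT6, replicate 4 of ZT12, replicate 2 of ZT18 and replicates 1, 2 and 4 of ZT21, and without replicate 2 of ZT3 the cosine passed with 0.0497.

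Sesn2, sestrin 2, a stress-induced leucine sensor that restrains mTORC1, was lowest at lights on and several-fold higher within 6 h (chr4:132492032-132510501 on the minus strand). Its mice had 4.62, 8.00, 10.7 and 5.51 CPM at ZT0, 8.16, 13.4, 32.1 and 31.3 CPM at ZT3 and 28.5, 22.8, 17.9 and 18.0 CPM at ZT6. All mice of ZT6 were above all of ZT0, while ZT3 split into a low and a high pair. The means of ZT0 and ZT6, 7.20 ± 2.72 and 21.8 ± 5.03 CPM (SD, n = 4 each), were 3.03-fold apart. The mice of ZT18 were again split (9.15, 12.0, 26.2 and 23.7 CPM). The exact JTK test (P = 1.00) and the cosine (edgeR BH-adjusted p = 0.536) did not pass, whereas the 8 time points passed (0.0205) and so did lane 2 alone (0.0341). Without replicate 1 of ZT0 the test of the time points gave 0.0517. The lane 2 result passed in 5 of its 12 fits without 1 mouse and was lost, with BH-adjusted p from 0.0507 to 0.102, without replicates 1, 2 and 4 of ZT0, replicate 3 of ZT3 and replicates 1, 2 and 3 of ZT6.

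Phgdh, phosphoglycerate dehydrogenase, catalyses the first step of serine synthesis from glycolysis (chr3:98313170-98339990 on the minus strand). Its mice had 24.4, 10.6, 5.54 and 7.92 CPM at ZT15, 6.46, 5.33, 20.8 and 9.01 CPM at ZT9, 2.75, 5.63, 4.34 and 4.97 CPM at ZT18 and 5.78, 3.27, 5.12 and 2.41 CPM at ZT21. Replicate 1 of ZT15 and replicate 3 of ZT9 were by far the highest of the 32 mice, and ZT15 and ZT21 overlapped. Means at ZT15 and ZT21 were 12.1 ± 8.46 and 4.15 ± 1.57 CPM (SD, n = 4 each). The amplitude was 0.60 ± 0.16 (SE, log2) with the peak at ZT10.6 (SE 1.04 h) (exact JTK P = 0.0147, BH-adjusted 0.0528, edgeR cosine BH-adjusted p = 0.0120). These 2 mice also had the highest sums of white fat markers, 419 and 322 CPM. Without them the cosine kept a BH-adjusted p of 0.0271 and JTK a P of 0.0372, while the 8 time points no longer passed (0.111). The latter test was also lost without replicate 1 of ZT15 alone (0.0594) and without the 3 libraries highest in muscle markers (0.0774). Phgdh shares sequence with 8 other annotated genes, so that 71.9% of its stretches of 100 bases are unique, and of these genes Gm7901 ran closely parallel to it (r = 0.93 over 32 libraries), so how the counting divided reads between them bears on its level.

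Psat1, the aminotransferase of the next step, was lowest at the end of the dark phase (chr19:15904678-15947337 on the minus strand). Its mice had 9.38, 6.37, 10.1 and 5.50 CPM at ZT9, 4.86, 10.4, 10.1 and 5.17 CPM at ZT3 and 3.68, 2.98, 4.12 and 2.01 CPM at ZT21. No mouse of ZT21 reached the lowest mouse of ZT9, and the means, 3.20 ± 0.919 and 7.83 ± 2.24 CPM (SD, n = 4 each), differed 2.45-fold across lanes. The amplitude was 0.37 ± 0.12 (SE, log2) with the peak at ZT8.29 (SE 1.21 h) (exact JTK P = 0.0304, BH-adjusted 0.0927, edgeR cosine BH-adjusted p = 0.0357). Both calls rest on single mice. The JTK call was lost in 6 of 32 fits (P up to 0.0971), without replicate 1 or 3 of ZT9, replicate 4 of ZT18 or replicate 1, 2 or 4 of ZT21, and the cosine call in these and without replicate 3 of ZT18 or of ZT21 (8 fits, BH-adjusted p up to 0.0823). Without the 2 libraries highest in white fat markers JTK gave 0.0514 and the cosine 0.0584.

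Mthfd2, the mitochondrial one-carbon enzyme that uses serine-derived units, had the lowest mean of the 10 genes, with 20 to 81 counts per library (chr6:83305691-83325908 on the minus strand). By the median over libraries Chac1 was lower (1.83 against 2.31 CPM). Its mice had 4.83, 2.90, 2.86 and 1.67 CPM at ZT6, 2.31, 2.43, 2.80 and 3.45 CPM at ZT0, 1.56, 1.45, 1.21 and 2.30 CPM at ZT12 and 1.42, 1.54, 1.63 and 2.29 CPM at ZT15. Each mouse of ZT0 was above every mouse of ZT12, although only just, while ZT6 overlapped with ZT12 through its lowest mouse. Means at ZT6 and ZT12 were 3.07 ± 1.31 and 1.63 ± 0.469 CPM (SD, n = 4 each). The amplitude was 0.34 ± 0.09 (SE, log2) with the peak at ZT2.55 (SE 1.00 h), close to that of Atf5 (exact JTK P = 0.00805, edgeR cosine BH-adjusted p = 0.0103). The test of the 8 time points (0.0302) was lost, with BH-adjusted p from 0.0520 to 0.0571, without replicate 1, 2 or 3 of ZT12 or replicate 2 of ZT15. It was also lost without the 3 libraries highest in muscle markers (0.103) and without the 2 highest in white fat markers (0.0542).

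The order of the levels can be read per length. By mean RPKM (CPM per kilobase of exons) over the 32 libraries the order was Atf5 with 50.9, Atf4 with 29.0, Asns with 22.1, Ddit3 with 11.0, Sesn2 with 4.35, Trib3 with 3.07, Phgdh with 2.87, Chac1 with 1.48, Psat1 with 1.35 and Mthfd2 with 0.672. Within a gene, of the 70 pairs of groups next to each other in the order of their means 1 did not overlap, beside 1.15% of neighbour pairs over all tested genes: Asns at ZT0 against ZT6 (exact permutation test, two-sided, p = 0.0286, the smallest that 4 against 4 can give; adjusted over the 70 pairs, p = 1.00). Between the highest and the lowest group the mice of 7 of the 10 genes did not overlap, all but Chac1, Phgdh and Mthfd2, beside 58.3% of all tested genes.

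ZT12 and ZT0, the onsets of the dark and the light phase, are also the times at which the study killed its Angptl4 mutant mice. Of the 10 genes Atf5 and Mthfd2 passed, both lower at ZT12, beside 8.15% of all genes lower, 7.71% higher and 15.9% in either direction. Atf5 fell by 1.15 on the log2 scale (SE 0.18, edgeR BH-adjusted p = 8.92e-05), from 147 ± 27.1 to 66.2 ± 7.68 CPM (SD, n = 4 each). Mthfd2 fell by 0.75 (SE 0.26, adjusted p = 0.0471), from 2.75 ± 0.512 to 1.63 ± 0.469 CPM. That of Mthfd2 was lost in 21 of 32 fits without 1 mouse (BH-adjusted p up to 0.146), among them without each mouse of ZT0 and without replicates 1, 2 and 3 of ZT12. Atf4 changed by -0.37 (SE 0.18, adjusted p = 0.163), Ddit3 by -0.46 (SE 0.18, adjusted p = 0.0901), Sesn2 by 0.82 (SE 0.39, adjusted p = 0.159), Phgdh by 0.81 (SE 0.45, adjusted p = 0.231) and Chac1 by 1.19 (SE 0.56, adjusted p = 0.151), none of which passed. Trib3, Asns and Psat1 had BH-adjusted p of 0.623, 0.552 and 0.739. ZT0 and ZT12 were on different lanes, so the contrast cannot be told apart from lane.

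Whether the members vary together among mice killed at the same time was asked on deviations from the time-point means. Of the 45 pairs none passed after BH adjustment (Pearson's r, mice permuted within time points with 100000 resamples, two-sided), and by Spearman's rho none did either. At an unadjusted p under 0.05 there were 6 pairs. The strongest was Ddit3 with Phgdh (r = 0.58, permutation p = 0.00220, adjusted p = 0.0990; rho = 0.55, permutation p = 0.00512, adjusted p = 0.115), with r of 0.58, 0.78 and -0.20 inside lanes 2, 3 and 4 and 0.56 without the 2 libraries farthest in Ddit3. Phgdh with Psat1, the first and next enzyme of serine synthesis, had r = 0.47 (permutation p = 0.00748, adjusted p = 0.168; rho = 0.55, permutation p = 0.00248, adjusted p = 0.112), positive in each lane (0.22, 0.69 and 0.50), and 0.37 without the 2 farthest. For Atf5 with Mthfd2 r was 0.56 (permutation p = 0.0172, adjusted p = 0.258; rho = 0.45, permutation p = 0.0190, adjusted p = 0.214), with 0.88, -0.06 and 0.34 inside the lanes and 0.35 without the 2 farthest. Atf4 with Asns had r = 0.41 (permutation p = 0.0345, adjusted p = 0.310; rho = 0.34, permutation p = 0.0843, adjusted p = 0.561), with 0.03, 0.78 and -0.01 inside the lanes and 0.46 without the 2 farthest.

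**Figure D3:**
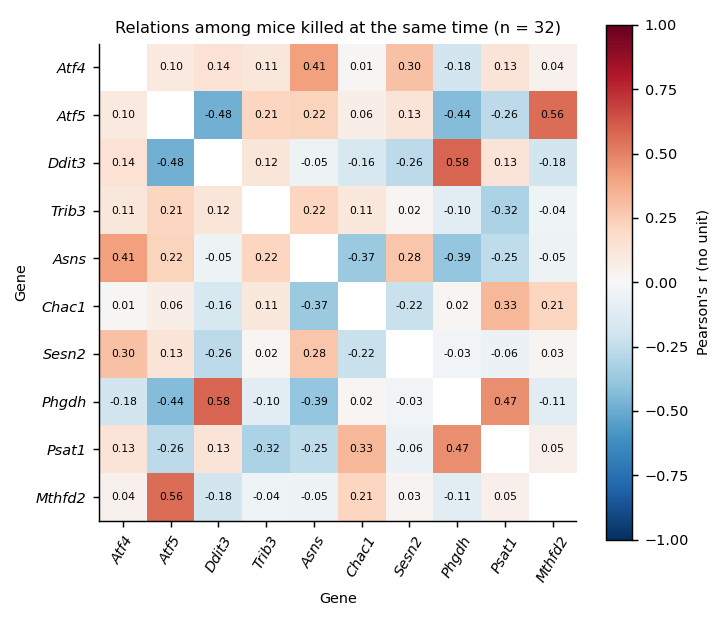
Pearson's r between each pair of the 10 genes, on deviations of log2 CPM from the time-point means over 32 mice. Both axes list the genes, and the colour and the printed value are the same r (no unit). The highest value is 0.58 for Ddit3 with Phgdh, and none of the 45 pairs passed after BH adjustment.

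By Pearson's r Phgdh and Psat1 ran with marker lists other than that of brown adipocytes, but not after adjustment without the 2 farthest libraries. Of 80 pairs of a member and a marker list, compared in the same way after the values had been seen, 5 passed after BH adjustment. Phgdh went with the white fat (r = 0.65, permutation p = 0.00171, adjusted p = 0.0400; rho = 0.59, adjusted p = 0.0514), leukocyte (r = 0.68, permutation p = 9.10e-04, adjusted p = 0.0364; rho = 0.56, adjusted p = 0.0514) and fibroblast lists (r = 0.63, permutation p = 0.00200, adjusted p = 0.0400; rho = 0.59, adjusted p = 0.0514). Inside lanes 2, 3 and 4 its r with the white fat list was 0.69, 0.83 and -0.05, with leukocytes 0.37, 0.88 and 0.48 and with fibroblasts 0.31, 0.83 and 0.77. Psat1 went with the fibroblast list (r = 0.63, permutation p = 7.00e-04, adjusted p = 0.0364; rho = 0.67, adjusted p = 0.0296), with 0.64, 0.69 and 0.54 inside the lanes. Asns, in contrast, went with the brown adipocyte list (r = 0.64, permutation p = 0.00263, adjusted p = 0.0421; rho = 0.63, adjusted p = 0.0514), with 0.36, 0.77 and 0.40 inside the lanes. Without the 2 libraries farthest from the median of the member these r were 0.49, 0.46, 0.44, 0.55 and 0.64 in the order given, and none passed after adjustment. All 5 white fat, 7 leukocyte and 5 fibroblast markers had counts, with summed ranges of 50.0 to 419, 42.8 to 259 and 245 to 847 CPM. In bulk tissue fewer cells of a type and less RNA per cell cannot be told apart. Of the markers themselves 4 of the 5 fibroblast, 3 of the 5 white fat and 3 of the 7 leukocyte genes passed the cosine test, beside 36.1% of all genes. The part of these cells in the daily pattern of Phgdh and Psat1 was not tested.

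**Figure D4:**
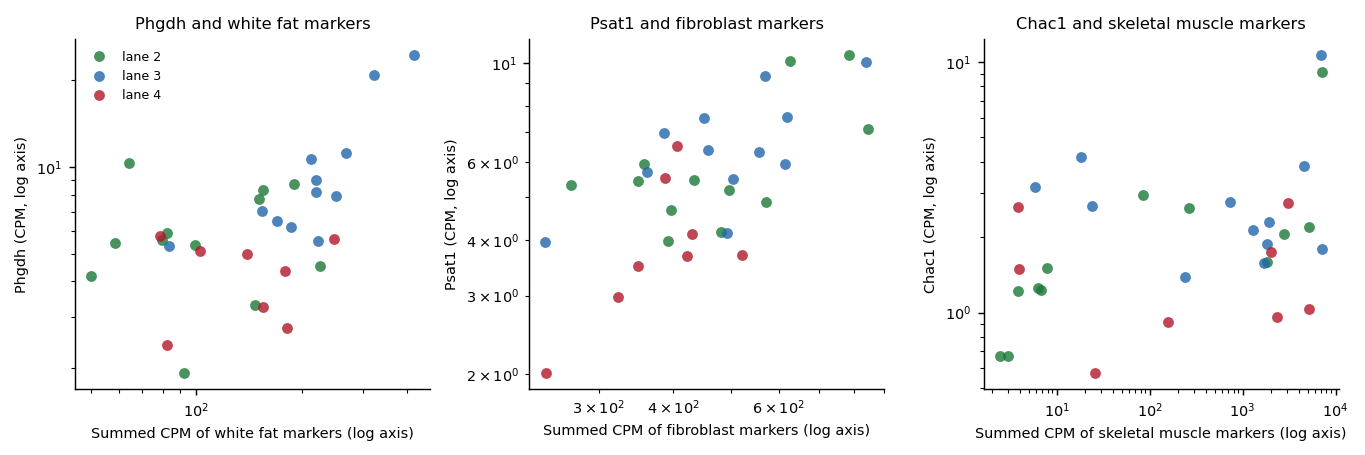
Level of Phgdh, Psat1 and Chac1 (CPM) against the summed CPM of white fat, fibroblast and skeletal muscle markers, both axes logarithmic, each point a mouse coloured by lane. The 2 mice highest in Phgdh are also highest in white fat markers (419 and 322 CPM), and of the 3 mice highest in muscle markers 2 have the highest Chac1.

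The genes of the pathway lists are read against all tested genes, of which 36.1% passed the cosine test, 2854 with a peak in the light and 2748 in the dark phase. Upstream of ATF4, of 15 genes for eIF2 kinases, eIF2 and eIF2B subunits, eIF2 phosphatases and their regulators, all tested, 6 passed the cosine test (2 with a peak in the light and 4 in the dark phase), a share near that of all genes, and the median amplitude of the list was 0.11 (log2) against 0.14 over all genes. Among these 6 the largest amplitude was that of Eif2b3, a subunit of the exchange factor for eIF2, with 0.23 ± 0.05 (SE) and a peak at ZT17.6 (edgeR BH-adjusted p = 0.00280). Eif2s1, the phosphorylated subunit itself, had 47.1 ± 2.73 CPM at ZT0 and 38.1 ± 3.11 CPM at ZT12 (SD, n = 4 each), with a peak at ZT22.4 (adjusted p = 0.00311). Impact, an inhibitor of GCN2 activation, had an amplitude of 0.14 ± 0.05 and a peak at ZT2.34 (adjusted p = 0.0347). The most abundant genes of the list, the phosphatase subunit Ppp1r15b (adjusted p = 0.193), the GCN2 activator Gcn1l1 (adjusted p = 0.373) and the haem-regulated kinase Eif2ak1 (adjusted p = 0.989), did not pass. With lane in the model, 2 of the 15 passed, beside 17.2% of all genes, and Eif2b3, Eif2s1 and Impact did not (edgeR, BH-adjusted p = 0.0916, 0.431 and 0.503).

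Of 12 partners and regulators of ATF4, 5 passed the cosine test, a share near the 36.1% of all genes, 4 of them with a peak in the dark phase. Jdp2, a bZIP repressor, had 9.09, 10.1, 8.22 and 10.3 CPM at ZT15 and 5.40, 3.98, 4.87 and 4.00 CPM at ZT3, without overlap, and peaked at ZT14.0 (amplitude 0.46 ± 0.06, SE, log2; edgeR BH-adjusted p = 4.24e-06). Nfe2l2, the oxidative stress factor NRF2, peaked at ZT15.5 (134 ± 25.1 against 64.3 ± 6.78 CPM, SD, n = 4 each). Nupr1, a stress-induced chromatin protein, peaked at ZT20.9, and within lane 2 it fell from 45.7 ± 2.29 CPM at ZT0 to 27.1 ± 3.69 CPM at ZT6 (edgeR BH-adjusted p = 0.00171). Cebpg, the C/EBP partner of ATF4, peaked at ZT20.1 with an amplitude of 0.14 ± 0.03. With lane in the model, 4 of the 12 passed, beside 17.2% of all genes. Jdp2 did not pass beside lane (adjusted p = 0.204), while Nfe2l2, Nupr1 and Cebpg did (BH-adjusted p = 2.24e-05, 1.82e-04 and 0.0153), and the abundant Atf6 did not pass the cosine (adjusted p = 0.641).

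Of 12 aminoacyl-tRNA synthetases 8 passed the cosine test, beside 36.1% of all genes, and 7 of these 8 peaked in the dark phase, beside 2748 of the 5602 genes that passed. Cars had 24.0, 24.3, 24.3 and 24.9 CPM at ZT21 and 16.9, 13.7, 11.8 and 12.8 CPM at ZT9, without overlap, with a peak at ZT21.9 (amplitude 0.36 ± 0.05, SE, log2; edgeR BH-adjusted p = 2.65e-06). Iars peaked at ZT19.7 (adjusted p = 4.83e-07) and Yars at ZT18.1 (adjusted p = 0.00114), whereas Eprs peaked in the light phase at ZT8.39. Beside lane, 2 of the 12 passed (Wars and Iars), a share near the 17.2% of all genes. Of 11 amino acid transporters 10 were tested, Slc7a11 being under the filter. Of the 10, 6 passed, beside 36.1% of all genes, 4 with a peak in the light phase. Slc43a1, a carrier of large neutral amino acids, peaked at ZT7.58 and had means of 3.77 ± 0.707 CPM at ZT18 against 10.7 ± 2.54 CPM at ZT9 (SD, n = 4 each), while the glutamine carriers Slc38a2 and Slc1a5 peaked in the dark phase at ZT18.4 and ZT13.5. With lane in the model, 2 of the 10 passed, beside 17.2% of all genes. Among them was Slc38a2 (edgeR, BH-adjusted p = 9.59e-04), and Slc43a1 and Slc1a5 did not pass (0.0898 and 0.114). Slc1a5 was far above all members in level, with a mean of 918 CPM over the 32 libraries.

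Of 18 other genes of serine, glycine and one-carbon metabolism 17 were tested, Gldc being under the filter, and 6 passed the cosine test, a share near the 36.1% of all genes, 5 of them with a peak in the dark phase. Psph, which completes serine synthesis, had 39.5, 34.1, 42.2 and 23.8 CPM at ZT0 and 24.9, 18.0, 17.5 and 21.4 CPM at ZT12 and peaked at ZT22.5 (amplitude 0.27 ± 0.08, SE, log2; edgeR BH-adjusted p = 0.0219). Its peak lay late in the dark phase and those of Phgdh and Psat1 in the light phase, at ZT10.6 and ZT8.29, but the difference between the genes was not tested. Mthfd1l, the mitochondrial formate-producing enzyme, was scarce but had 1.38, 1.92, 2.19 and 2.19 CPM at ZT12 against 0.321, 0.237, 0.417 and 0.278 CPM at ZT0, with a peak at ZT12.8 (adjusted p = 1.61e-06). It was higher at ZT12 than at ZT0 by 2.59 on the log2 scale (adjusted p = 3.97e-05), while Mthfd2, of the same mitochondrial branch, was lower by 0.75. Aldh1l1, which oxidises formyl folate, peaked at ZT15.4, and the abundant Sfxn1, a mitochondrial serine carrier, and Gcsh did not pass (adjusted p = 0.660 and 0.700). With lane in the model, 2 of the 17 passed, beside 17.2% of all genes, and Psph, Mthfd1l and Aldh1l1 did not (edgeR, BH-adjusted p = 0.265, 0.471 and 0.0530).

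Of 9 ATF4 targets of amino acid metabolism 5 passed the cosine test (Cth, Aldh18a1, Pycr1, Bcat1 and Psph), beside 36.1% of all genes. Psph was also counted among the serine genes above. With lane in the model only Pycr1 of the 9 passed, beside 17.2% of all genes. Pycr1, of proline synthesis, had 1.01, 1.30, 0.897 and 0.836 CPM at ZT6 and 0.368, 0.236, 0.175 and 0.235 CPM at ZT15 and peaked at ZT6.19, near Trib3 (adjusted p = 2.11e-07, and 1.04e-05 beside lane, edgeR, BH-adjusted). Among 14 stress hormones and other targets 12 were tested and 3 passed (Ddit4, Herpud1 and Ndrg1), beside 36.1% of all genes. All 3 peaked in the light phase, beside 2854 of the 5602 genes that passed. The hormones Fgf21 and Gdf15 were under the filter on low counts. Ddit4, an inhibitor of mTORC1 like Sesn2, peaked at ZT10.8 and rose from 9.30 ± 2.74 CPM at ZT0 to 40.9 ± 8.70 CPM at ZT12 (SD, n = 4 each), and Vegfa, Vldlr and Eif4ebp1 did not pass the cosine test (adjusted p = 0.417, 0.865 and 0.220). Beside lane Ddit4 passed (edgeR, BH-adjusted p = 0.0162), and Herpud1 and Ndrg1 did not (0.169 and 0.141). Of 6 mitochondrial proteases and chaperones 3 passed (Hspd1, Hspe1 and Yme1l1), beside 36.1% of all genes. Each was highest at ZT0 and peaked within 2 h of it. Hspe1 had 128 ± 26.5 CPM at ZT0 and 84.8 ± 13.4 CPM at ZT15, and Hspa9 and Lonp1 did not pass (adjusted p = 0.323 and 0.657). Beside lane Hspd1, Hspe1 and Yme1l1 did not pass (edgeR, BH-adjusted p = 0.166, 0.143 and 0.224).

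Between ZT12 and ZT0 the genes of these lists are read against 7.71% of all tested genes higher and 8.15% lower at ZT12 (edgeR, BH). No list was tested against these shares. At ZT12, 2 of the 12 ATF4 partners were higher and 1 lower, 3 of the 17 one-carbon enzymes higher and 2 lower, and 2 of the 12 hormones and other targets higher and 2 lower. None of the 6 mitochondrial proteases and chaperones was higher and 3 were lower, and none of the 15 eIF2 genes or of the 12 synthetases was higher and 1 of each was lower. Of the 10 transporters 1 was higher and none lower, and of the 9 amino acid targets 1 was higher and 1 lower.

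**Figure D5:**
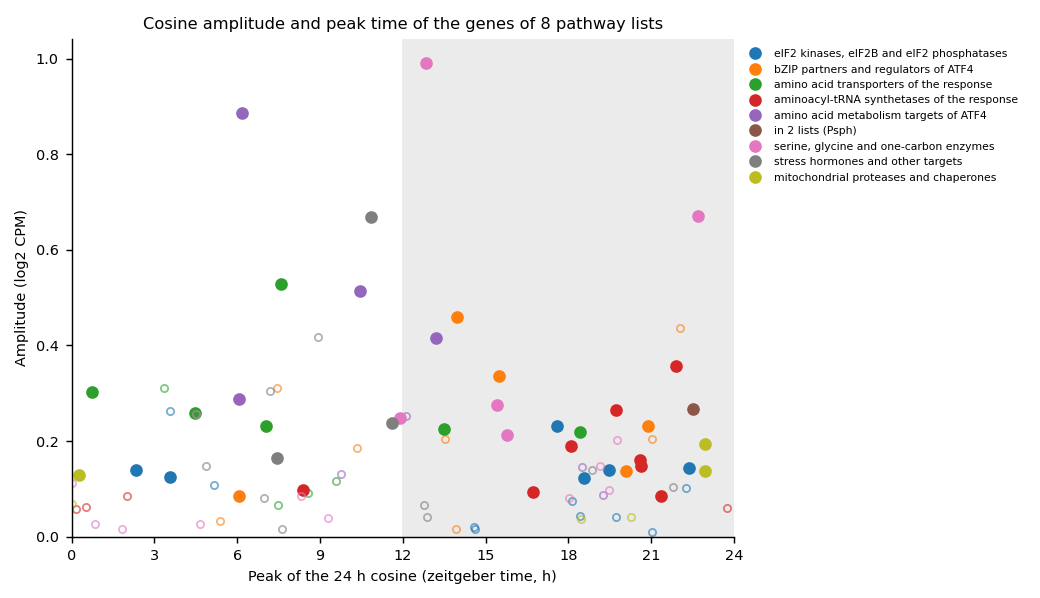
Amplitude of the 24 h cosine (log2 CPM) against its peak (Zeitgeber time, h) for the tested genes of 8 pathway lists. Each colour is a list, filled points passed the edgeR cosine test after BH adjustment, open points did not, and grey marks the dark phase. Of the 8 aminoacyl-tRNA synthetases that passed, 7 lie in the dark phase, and the highest points are Mthfd1l (0.99) and Pycr1 (0.89).

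The genes most like each member over the 32 libraries were mostly not other members. By Pearson's r of log2 CPM, a description over libraries that share time, lane and depth, Atf4 was closest to Mien1 (0.79), Higd2a (0.79) and Zcchc17 (0.77), and among members to Asns (0.46). Atf5 was closest to Gm36595 (0.87), Commd10 (0.83) and Dhcr7 (0.83). Mthfd2 was the only member with another member among its 3 closest genes, Atf5 with 0.71, after Deptor (0.72) and before Pir (0.71). Trib3 was closest to Tmem140 (0.82), H3f3b (0.80) and Slc30a1 (0.79), Asns to Fam3c (0.85), Trmt10c (0.84) and Tfb2m (0.83), and Ddit3 to Abi3 (0.79), Samd9l (0.78) and Acin1 (0.76). For Sesn2 these were Polr2a (0.79), Etv3 (0.77) and Pura (0.77), and for Chac1 9330159F19Rik (0.71), 1700025G04Rik (0.70) and Klf12 (0.70). Phgdh was closest to Gm7901 (0.93), Heph (0.88) and Rarres2 (0.87), and Psat1 to C2 (0.79), Chst1 (0.79) and Trf (0.78). Phgdh and Psat1 had each other as the closest member (0.59).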

How the data were processed

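RNA-sequencing was performed on iBAT of 32 mice, 4 at each of 8 time points, and the deposited table holds raw counts per gene. According to the submitters' processing notes the authors aligned reads with GSNAP to the mouse genome and counted reads with HTSeq (0.6.1). Libraries were stranded, and whether counting used strand is not given in the sources used here. The genes carry Ensembl identifiers. Coordinates and exons were taken from a GENCODE annotation of GRCm38 (mm10, the build of the files), whose release differs from the one used for counting, and promoters from RefSeq.

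Groups followed the sample titles, and lane the sample labels. Counts were filtered with filterByExpr, scaled by TMM and tested with edgeR 4.0.16 in R 4.3.3 with BH adjustment over all tested genes, at a threshold of 0.05. Cosines were fitted on log2 CPM (prior count 2). JTK was computed with the exact Jonckheere-Terpstra distribution, with P under 0.05 as in the study, and its published package was not used. Permutations used SciPy 1.17.1 and NumPy 2.4.6, limma was 3.58.1, and plots were drawn with matplotlib 3.10.9 in Python 3.11.15. The JTK and edgeR tests and the permutation test of relations were tried on simulated data. Same-numbered libraries did not pair: the median correlation of their deviations was -0.12 against 0.07 for other numbers. No libraries of a time point agreed within sampling noise (mean chi-square per gene at least 7.98).

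All 10 members were named. From each pathway list up to 3 genes with the largest amplitude among those past the cosine threshold and up to 3 with the highest mean CPM were named, and for each member the 3 genes most like it. 1 gene that this rule names is not reported here. Wars and Aldh18a1 were named only because a count was small, after their values were seen. The rule for the members uses symbols alone, but this set of symbols and the lists were chosen with earlier results of these data known. Alternatives were DESeq2 1.42.0, other scalings, no filter, lane, the replicate block and each library left out. Those without the libraries highest in muscle or white fat markers, and the relations with marker lists, were added after seeing the data.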

Additional observations from a re-analysis of the deposited data

Results flagged for a closer look

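In 4 of 88 sets of 4 mice, 80 for the members' levels and 8 for the total counts, 1 mouse stood apart by Dixon's criterion, which chance meets in about 1 of 20 groups. Trib3 at ZT6 was 13.96 CPM in replicate 3 against 10.64 to 11.16 CPM in the other mice. Sesn2 at ZT12 was 18.26 CPM in replicate 1 against 10.08 to 11.34 CPM. Mthfd2 at ZT18 was 1.255 CPM in replicate 4 against 2.094 to 2.208 CPM, and this mouse had summed muscle markers of 5135 CPM. The total count at ZT15 was 17466245 in replicate 1 against 17136479 to 17167267 in the others, and this was the library highest in muscle and white fat markers.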

How the results depend on the processing

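Of 106 counts under other settings 90 stayed within 1.5 times of the reported ones. With lane as an additive factor 2661 genes and 2 members passed the cosine test, and 12 h terms passed in 72 genes and 0 members. The BH threshold left 4 members by JTK. Of the members, 1 differed between ZT12 and ZT0 (Atf5) with library size alone, with no filter, with the replicate block and with ZT12 and ZT0 fitted alone, the last with 1259 genes. With library size alone 1 member differed within lane 4 (Ddit3). With the replicate block 107 genes differed within lane 3 and 60 within lane 4, and 1 pair of members was related. Of the pairs of a member and a marker list 1 passed by rho and 0 without the 2 farthest libraries. Replicate numbers did not pair the mice (4 of 32 libraries were closest to their own number). Other calls of members that changed were Ddit3 over the 8 time points (0.0369 with the replicate block, 0.0249 with DESeq2), Psat1 by cosine (0.0505) and Mthfd2 over time points (0.0515) with no filter, and within lane 2 Asns (0.131 by library size, 0.0711 with no filter) and Sesn2 (0.0534 with the block). The cause was not tested.

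Leaving out 1 library, JTK called 5361 to 6078 genes and 6 to 7 members, the cosine 5104 to 5997 and 6 to 8, the 8 time points 5558 to 6686 and 7 to 10, and ZT12 against ZT0 1682 to 2684 and 1 to 2. Within lane 2 these were 914 to 3316 and 1 to 3, within lane 3 58 to 392 and 0 to 0, and within lane 4 190 to 404 and 0 to 1 (Ddit3 without ZT18 replicate 1, Trib3 without ZT21 replicate 2). Lane 2 held 1 member without ZT0 replicate 1 or 2, ZT3 replicate 3, or ZT6 replicate 1 or 3. Pairs of members past the threshold were 0 to 1, with 1 without ZT21 replicate 1 or 4. Neighbouring groups were not recomputed, since 3 against 4 mice cannot go below an exact p of 0.0571. Among the members the lowest mean levels were those of Mthfd2 (20 to 81 counts per library) and Chac1 (10 to 183), so depth limits these most. Pycr1, Bcat1 and Mthfd1l of the pathway lists were scarcer still, with means of 0.59, 0.63 and 0.85 CPM.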
